A study of Mus musculus with 7 samples.

Results

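The 8 genes described here, Hmgcs1, Idi1, Fdft1, Sqle, Lss, Dhcr7, Srebf2 and Insig1, belong to the pathway by which cells make cholesterol. They were taken by gene symbol, and all 8 were found among the 19257 genes named in the table of normalized counts and passed the filter that left 14782 genes for testing. The first 6 are enzymes and the last 2 are regulators; none of them is an uptake receptor, so cholesterol uptake was read from a separate list below. The question asked of them was whether their RNA differed between GPC6 and 3xCR tumors of mice.

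3xCR tumors arose in brains of CD-1 and C57BL/6 background after electroporation in utero of the progenitors along the lateral ventricles, with Cas9 and guides that cut tumor suppressor genes, including Trp53 and Nf1, and a piggyBac transposon carrying a GFP reporter. GPC6 tumors received the same mixture, but with GPC6, a heparan sulfate proteoglycan anchored at the cell surface, overexpressed from the transposon. Tumor tissue of both groups was dissected under fluorescence at the endpoint of disease, and there was no brain without a tumor. The study as a whole used animals of both sexes, and age and sex are not given per library. There were 3 libraries of 3xCR tumors (replicates 2, 3 and 4) and 4 of GPC6 tumors (replicates 1 to 4), each from a single brain, read by bulk RNA-Seq.

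Cholesterol does not cross the blood-brain barrier in useful amounts, so the brain makes its own, with oligodendrocytes that build myelin and astrocytes among the main producers. Synthesis runs from acetyl-CoA through mevalonate and isoprenoids to squalene, the first committed sterol precursor, and then through lanosterol to cholesterol. The genes are switched together by SREBP2, the product of Srebf2. This membrane-bound factor is held in the endoplasmic reticulum by INSIG1 when sterols are plentiful and is cut free when they are scarce, so that its target genes, Srebf2 and Insig1 among them, rise and fall as a set.

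The RefSeq promoter windows of GRCm38 were searched for the letters that this switch is known to read. A window runs from 250 bases before a transcription start to 50 bases after it and was present for 6 of the 8 genes. The letters searched, on both strands, were the core of the sterol regulatory element (TCACNCCA), the CCAAT box (CCAAT) and the GC box (GGGCGG), the last 2 being bound by NF-Y and SP1, factors that act beside SREBP2. Below are the parts of 3 windows that lie before any annotated exon, chosen because Hmgcs1 had the highest level per length, Srebf2 was the regulator whose groups did not overlap, and Insig1 varied least. Capitals mark matches to the 3 motifs, none of which overlapped another.
Hmgcs1, chr13:119690101-119690350, plus strand: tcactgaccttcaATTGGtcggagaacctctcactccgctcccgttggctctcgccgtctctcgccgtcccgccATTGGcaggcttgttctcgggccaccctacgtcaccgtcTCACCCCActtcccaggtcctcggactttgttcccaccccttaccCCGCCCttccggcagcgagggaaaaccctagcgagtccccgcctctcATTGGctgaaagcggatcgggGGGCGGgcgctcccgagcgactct
Srebf2, chr15:82147019-82147180, plus strand: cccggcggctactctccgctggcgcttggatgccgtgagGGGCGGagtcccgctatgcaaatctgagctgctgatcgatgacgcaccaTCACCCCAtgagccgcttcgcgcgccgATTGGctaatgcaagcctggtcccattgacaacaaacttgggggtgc
Insig1, chr5:28071162-28071362, plus strand: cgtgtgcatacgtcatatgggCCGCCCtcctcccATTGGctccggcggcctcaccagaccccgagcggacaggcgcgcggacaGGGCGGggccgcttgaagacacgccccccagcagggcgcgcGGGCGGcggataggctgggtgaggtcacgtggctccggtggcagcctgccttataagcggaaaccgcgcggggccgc
The sterol core stood 137 bases before the start in Hmgcs1 and 162 bases before it in Srebf2. It was found in the windows of 2 of the 6 genes, against 4.97% of the 27025 genes with a window. All 6 genes had a CCAAT box and a GC box in at least 1 window, against 41.1% and 38.2% of genes. A match is a description of letters only, and Dhcr7 reached these counts through the last of its 3 windows for the CCAAT box.

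The libraries held 7197692 to 18879762 reads on genes, and the 8 genes had between 212 and 3289 reads in every library, so none was near the limit of detection. Gpc6 lay at 126 to 226 normalized counts in 3xCR and at 263 to 5084 in GPC6 tumors, with the library labelled GPC6 replicate 2 near the 3xCR level. In limma's test across the 14782 genes, 0 genes (0%) had an adjusted p under 0.05, while 689 (4.66%) had an unadjusted p under 0.05. DESeq2 on the reads recovered from the table called 4 genes after adjustment and had 1853 with an unadjusted p under 0.05; for edgeR these numbers were 0 and 991. In bulk tissue, fewer cells of a type and less RNA per cell cannot be told apart.

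No difference in the cholesterol genes was detected between the groups at this number of tumors. None of the 8 (0 of 8) passed limma at an adjusted p under 0.05, and none had an unadjusted p under 0.05, against the 4.66% of all genes given above. The mean log2 value was higher in GPC6 tumors for 5 and lower for 3. The median log2 fold change (GPC6 minus 3xCR, on log2(normalized count + 1)) was 0.16, beside -0.02 over all genes tested. This median rested in part on single libraries, being 0.049 without 3xCR replicate 4, 0.053 without GPC6 replicate 3 and 0.093 without GPC6 replicate 4. The groups overlapped in 7 of the 8, the exception being Srebf2, where 2.8% of all genes tested had no overlap with GPC6 higher and 3.52% with GPC6 lower.

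**Figure D1:**
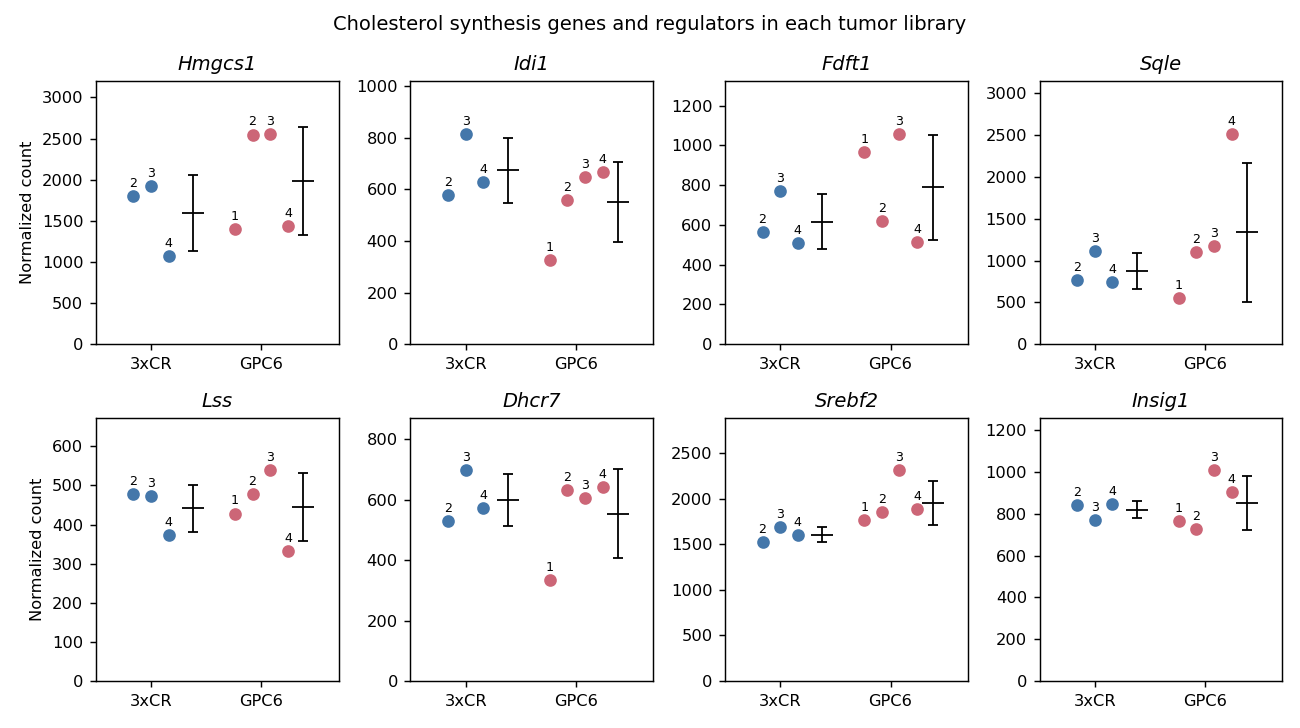
Normalized counts of the 8 genes (linear axes from 0) in each library, with the replicate number above each point and, to the right of each group, its mean ± SD (3xCR, n = 3, blue; GPC6, n = 4, red). Srebf2 is the gene whose groups do not overlap, and GPC6 replicate 4 stands above the other libraries in Sqle at 2515.

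Hmgcs1 makes HMG-CoA, the substrate of mevalonate synthesis at the head of the pathway (chromosome 13 of GRCm38, 119690379 to 119708260). The 3xCR libraries, given here and below in the order of replicates 2, 3 and 4, had 1803, 1922 and 1072 normalized counts, while GPC6 replicates 1 to 4 had 1396, 2550, 2560 and 1440. GPC6 replicates 2 and 3 lay above all 3xCR libraries, whereas GPC6 replicates 1 and 4 lay inside the 3xCR range. The means were 1599 ± 460 (SD, n = 3) and 1987 ± 657 (SD, n = 4), a log2 fold change of 0.30 (SE, the standard error, 0.33; adjusted p = 0.804 by limma). Its 95% interval ran from -0.48 to 1.07. Without 3xCR replicate 4 the value was 0.032, and leaving out GPC6 replicate 2 or 3 gave 0.16 or 0.15.

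Idi1, the isomerase that interconverts the 5-carbon isoprenoid units, lies on the same chromosome (8885501 to 8892451). It had 578, 816 and 628 normalized counts in the 3xCR libraries, and 328, 557, 647 and 666 in GPC6 replicates 1 to 4. The lowest value belonged to GPC6 replicate 1, with GPC6 replicates 3 and 4 inside the 3xCR range. The means of 674 ± 125 (SD, n = 3) and 549 ± 155 (SD, n = 4) gave a log2 fold change of -0.33 (SE 0.30; adjusted p = 0.760 by limma; interval -1.02 to 0.35), the lowest of the 8. Without GPC6 replicate 1 it was -0.10, and without 3xCR replicate 3 it was -0.19.

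Fdft1, squalene synthase, commits isoprenoids to sterols (chromosome 14, 63145150 to 63179578). Its normalized counts were 564, 773 and 511 in the 3xCR libraries, and 966, 618, 1059 and 512 in GPC6 replicates 1 to 4. GPC6 replicates 1 and 3 stood above the 3xCR range and the other GPC6 libraries inside it. The means were 616 ± 138 (SD, n = 3) and 789 ± 265 (SD, n = 4), with a log2 fold change of 0.32 (SE 0.31; adjusted p = 0.781 by limma; interval -0.41 to 1.04). GPC6 replicates 1 and 3 also held the highest summed normalized counts of 12 neuron markers (73783 and 37842, against 6318 to 13120 in the other libraries). With the neuron score as a term in the fit, the log2 fold change of Fdft1 was -0.07. The oligodendrocyte score as a term gave 0.41. The part of these cell types in the value of Fdft1 was not tested. Single libraries moved it as well, to 0.15 without GPC6 replicate 3, 0.20 without GPC6 replicate 1, 0.19 without 3xCR replicate 4 and 0.49 and 0.50 without 3xCR replicate 3 and GPC6 replicate 4.

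Sqle, squalene epoxidase, makes the first oxygenated sterol precursor and is one of the rate-limiting steps (chromosome 15, 59315077 to 59331192). It had 768, 1116 and 739 normalized counts in the 3xCR libraries, and 553, 1097, 1174 and 2515 in GPC6 replicates 1 to 4. GPC6 replicate 4 lay well above the rest and GPC6 replicate 1 below all others, so that this gene had the widest spread of the 8, 4.55-fold from lowest to highest. The means were 875 ± 210 (SD, n = 3) and 1335 ± 834 (SD, n = 4), and the log2 fold change of 0.43 was the highest of the 8 (SE 0.47; adjusted p = 0.801 by limma; interval -0.65 to 1.51). Leaving out GPC6 replicate 4 gave 0.06, and leaving out GPC6 replicate 1 gave 0.78.

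Lss, lanosterol synthase, closes the sterol rings (chromosome 10, 76531588 to 76557138). Its normalized counts were 478, 473 and 373 in the 3xCR libraries, and 428, 479, 538 and 333 in GPC6 replicates 1 to 4. Both the highest and the lowest value belonged to GPC6 libraries, and the means, 441 ± 59.1 (SD, n = 3) and 445 ± 86.9 (SD, n = 4), nearly coincided. The log2 fold change was -0.00094 (SE 0.24; adjusted p = 0.999 by limma), with an interval from -0.54 to 0.54, or 0.685-fold to 1.46-fold.

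Dhcr7 carries out the reduction that ends one of the routes to cholesterol (chromosome 7, 143823145 to 143848410). It had 529, 698 and 572 normalized counts in the 3xCR libraries, and 334, 633, 607 and 642 in GPC6 replicates 1 to 4. GPC6 replicate 1 stood apart below, and the other 3 GPC6 libraries lay inside the 3xCR range. The means were 600 ± 87.5 (SD, n = 3) and 554 ± 148 (SD, n = 4), a log2 fold change of -0.15 (SE 0.28; adjusted p = 0.882 by limma; interval -0.81 to 0.50). Without GPC6 replicate 1 the sign turned and the value was 0.07.

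Srebf2, the gene of the factor that switches the pathway, had 1527, 1693 and 1599 normalized counts in the 3xCR libraries, and 1765, 1854, 2313 and 1885 in GPC6 replicates 1 to 4 (chromosome 15, 82147181 to 82205379). The lowest GPC6 value exceeded the highest 3xCR value, and this included GPC6 replicate 2. The means were 1606 ± 83.4 (SD, n = 3) and 1954 ± 244 (SD, n = 4). The log2 fold change of 0.28 (SE 0.18, interval -0.15 to 0.70, or 0.901-fold to 1.63-fold) did not pass limma (unadjusted p = 0.173, adjusted p = 0.730). The separation depended on the scaling of the libraries. With libraries scaled to an equal total, the highest 3xCR value was 1699 and the lowest GPC6 value 1680, and with an equal upper quartile they were 1746 and 1642, so the groups then overlapped.

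Insig1, the sterol sensor that retains SREBP2, had 841, 772 and 848 normalized counts in the 3xCR libraries, and 765, 725, 1008 and 902 in GPC6 replicates 1 to 4 (chromosome 5, 28071363 to 28078662). GPC6 replicates 3 and 4 stood above the 3xCR range and GPC6 replicates 1 and 2 below it. The means of 820 ± 42.0 (SD, n = 3) and 850 ± 130 (SD, n = 4) gave a log2 fold change of 0.04 (SE 0.19; adjusted p = 0.960 by limma; interval -0.41 to 0.49). At 1.39-fold from lowest to highest it was the steadiest of the 8.

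**Figure D2:**
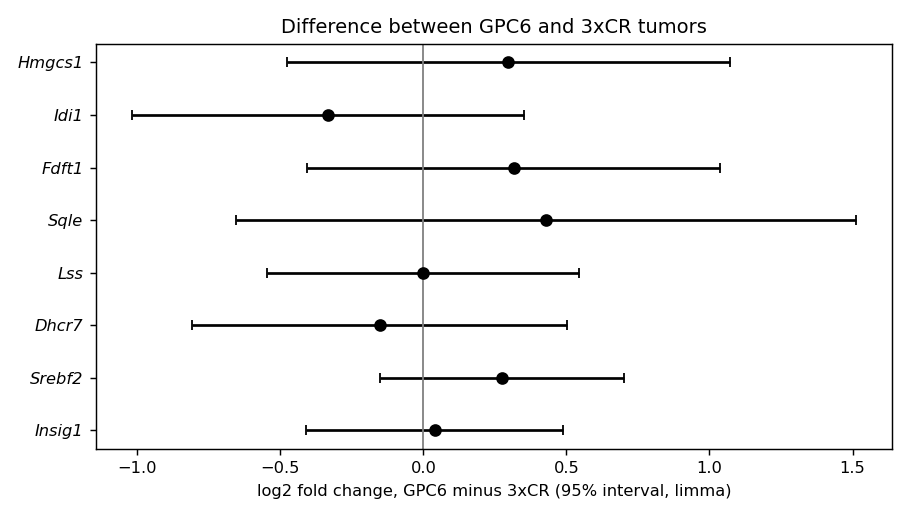
Log2 fold change (GPC6 minus 3xCR tumors, limma on log2(normalized count + 1)) of the 8 genes, as points with 95% intervals, enzymes in pathway order above and regulators below. All 8 intervals include 0, from the widest in Sqle (-0.65 to 1.51) to the narrowest in Srebf2 (-0.15 to 0.70).

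Levels were compared between genes as normalized counts per kilobase of merged GENCODE exons, as means ± SD over all 7 libraries. Hmgcs1 led with 396 ± 125, followed by Insig1 (271 ± 31.1), Srebf2 (251 ± 36.0), Sqle (205 ± 117), Idi1 (172 ± 42.0) and Fdft1 (169 ± 52.9). Dhcr7 (98.6 ± 20.4) and Lss (41.1 ± 6.52) were lowest. Only the last 2 steps of this order, Fdft1 above Dhcr7 and Dhcr7 above Lss, held in 7 of 7 libraries. Hmgcs1 over Insig1, Insig1 over Srebf2 and Srebf2 over Sqle held in 6 of 7, Idi1 over Fdft1 in 5 and Sqle over Idi1 in 4. Merged exons count every annotated transcript, which lowers the level of a gene with long rare exons; those of Lss span 10787 bases.

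Pairs among the 8 genes differed in how closely they followed each other across libraries. The log2 values of each gene were centred on its mean over the 7 libraries, and a pair of genes was compared by the mean absolute difference of these centred values. Idi1 and Dhcr7 were the closest pair (0.097), both with their highest value in 3xCR replicate 3 and their lowest in GPC6 replicate 1. Sqle and Fdft1 were the farthest (0.57), one highest and the other at nearly its lowest in GPC6 replicate 4. The median over the 28 pairs was 0.34, and no value for pairs of other genes is given beside it. GPC6 replicate 3 was the library in which all 8 genes stood above their own mean, and in which 5 of them peaked. In GPC6 replicate 1, by contrast, 7 of 8 were below their mean, with Fdft1 the exception. The shares of all genes above or below their mean in these libraries are not given, so these counts do not show coordination. The mean of the 8 centred values was 0.32 in GPC6 replicate 3 and -0.31 in GPC6 replicate 1, GPC6 replicates 2 and 4 having 0.07 and 0.10. For 3xCR replicates 2, 3 and 4 it was -0.10, 0.14 and -0.23. The SD of the log2 value over the 7 libraries ran from 0.16 in Insig1 to 0.70 in Sqle, with a median of 0.38, beside 0.52 over all genes tested. These medians were not matched for level. The 8 genes had means of 443 to 1820 normalized counts, whereas the genes tested included means down to 10.

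The 5 genes outside all lists whose centred values lay closest to this mean profile were Ccdc66, Snx12, Nkap, Thoc2 and Sec24c, by mean absolute differences of 0.071, 0.072, 0.077, 0.079 and 0.080 over the 7 libraries, beside a median of 0.42 over the 14652 genes compared. All 5 had log2 fold changes near 0, from -0.0018 in Nkap to 0.20 in Thoc2, which follows from how they were chosen. Among the 8 genes themselves, Srebf2 lay nearest to the profile (0.11) and Sqle farthest (0.35). Each of the 8 is part of the profile, which shortens its distance. These values therefore cannot be set against those of the genes outside.

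The labels call the tissue brain and the cell type neural, and the markers of neural cells were present in all libraries. All 11 oligodendrocyte markers, 12 neuron markers, 10 astrocyte markers and 12 proliferation markers were detected in every library, while Folr1 and Otx2 of the 8 choroid plexus markers were at 0 in some. The summed normalized counts of the oligodendrocyte markers, which include the myelin gene Mbp, were 67963 to 85489 in 3xCR tumors and 16759 to 117532 in GPC6 tumors, with the 2 lowest values in GPC6 replicates 4 (16759) and 3 (25366). The sum of the 8 cholesterol genes was 6343 to 8262 in 3xCR and 6535 to 9906 in GPC6 tumors. Its highest values were in GPC6 replicates 3 and 4 (9906 and 8896). In GPC6 replicate 4, Sqle alone made up 2515 of this sum. The mean of the 8 centred values there (0.10) was below that of 3xCR replicate 3 (0.14). Sqle, which peaked in GPC6 replicate 4, had a log2 fold change of 0.08 with the oligodendrocyte score as a term in the fit, and of 0.87 with the neuron score, so the 2 terms moved it in opposite directions. The median over the 8 genes was 0.069 with the first term and 0.079 with the second, and none of the 8 had an unadjusted p under 0.05 with either. The proliferation markers summed to 1363 in GPC6 replicate 1 and to at least 7469 in the others, and Idi1, Dhcr7 and Sqle were lowest in this library. The neuron markers summed to 6318 to 11973 in 3xCR and 7879 to 73783 in GPC6 tumors, and the astrocyte markers to 7928 to 38417 and 14652 to 57895. The microglia and macrophage markers, 10 of 10 detected, summed to 30234 to 54518 in 3xCR and 15846 to 28700 in GPC6 tumors, without overlap. The choroid plexus markers summed to 4201 to 8701 and 2319 to 21330. The part of each cell type in the values of the cholesterol genes was not tested.

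**Figure D3:**
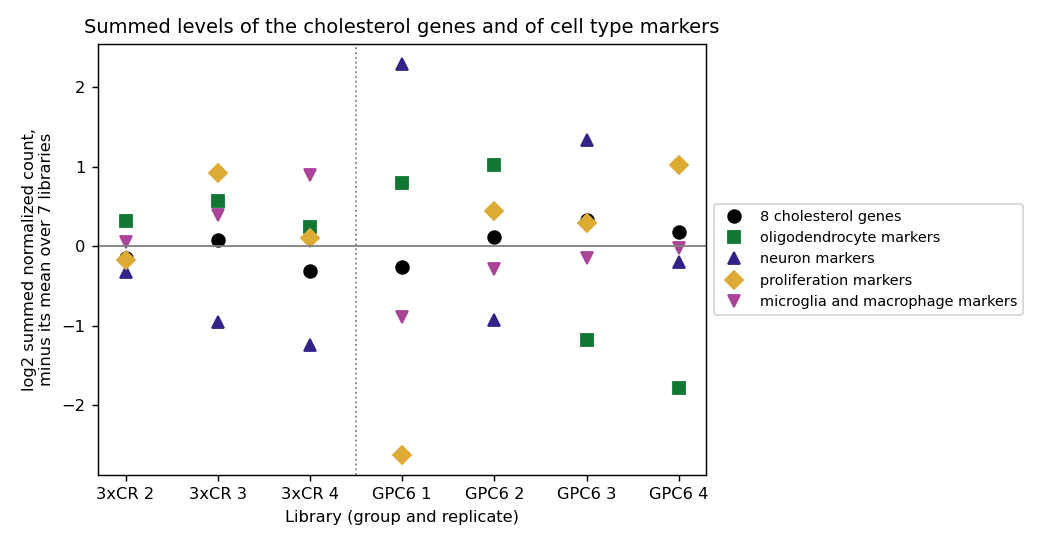
Log2 of the summed normalized counts of the 8 cholesterol genes and of 4 marker lists in each library, minus the mean of each over the 7 libraries (3xCR left of the dotted line, GPC6 right). The cholesterol genes (black circles) run from 6343 to 9906 summed normalized counts, a narrower spread than that of the marker lists, as with the proliferation markers in GPC6 replicate 1 (summed normalized count 1363) and the oligodendrocyte markers in GPC6 replicate 4 (16759).

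Of the 15 other enzymes of sterol synthesis, none had an unadjusted p under 0.05; the log2 fold change was above 0 in 4 and below 0 in 11, with a median of -0.10. Acat2, which supplies acetoacetyl-CoA at the head of the pathway and had the highest mean, had 985 to 1731 normalized counts in 3xCR and 906 to 1780 in GPC6 tumors (log2 fold change 0.04, SE 0.31). Tm7sf2, a sterol reductase that acts after lanosterol, had the lowest log2 fold change of the list (-0.59, SE 0.32; adjusted p = 0.730 by limma), with a range of 138 to 144 normalized counts among 3xCR tumors against 67.9 to 139 among GPC6 tumors.

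Among 10 genes that process SREBPs or sense sterols, 5 had a log2 fold change above 0 and 5 below, with a median of 0.0049 and none at an unadjusted p under 0.05. Mbtps2, the protease that makes the second cut releasing SREBPs, had the highest value (0.49, SE 0.27; adjusted p = 0.730 by limma), and Syvn1, an E3 ubiquitin ligase of the endoplasmic reticulum, the lowest (-0.21, SE 0.40).

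The 13 genes of cholesterol uptake and transport within the cell had a median log2 fold change of -0.05, with 5 above 0 and 8 below. One had an unadjusted p under 0.05. This was Npc2, a lysosomal protein that hands on cholesterol from endocytosed lipoproteins. Its normalized counts were 4444 to 9625 in 3xCR and 2094 to 4200 in GPC6 tumors, and each GPC6 library lay below each 3xCR library. The log2 fold change was -0.92 (SE 0.35, unadjusted p = 0.0322, limma adjusted p = 0.730), and it was -0.61 without 3xCR replicate 4. It was -0.45 with the neuron score as a term and -1.05 with the oligodendrocyte score. The summed microglia and macrophage markers given above did not overlap between the groups either and were lower in GPC6 tumors. Taken singly, 4 of the 10 markers had no overlap, each of them lower in GPC6 tumors, beside 3.52% of all genes tested. The part of these markers in the value of Npc2 was not tested. Stard3 and Mylip, chosen after their values were seen, were the other genes of this list without overlap. This made 3 of 13 genes with GPC6 lower, beside 3.52% of all genes tested. Stard3, a sterol carrier between membranes, had 579 to 800 normalized counts in 3xCR and 416 to 572 in GPC6 tumors, and Mylip, a ligase that marks lipoprotein receptors for breakdown, had 250 to 319 and 167 to 226. Their log2 fold changes were -0.48 (SE 0.22) and -0.49 (SE 0.23), and neither passed limma (adjusted p = 0.730 for each).

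The 11 genes of cholesterol efflux, storage and turnover spread most widely, from -1.61 to 1.88, around a median of -0.26, and none had an unadjusted p under 0.05. Cyp46a1, the neuronal hydroxylase by which the brain disposes of cholesterol, was at the upper end. The 3xCR libraries had 280, 125 and 74.6 normalized counts, and GPC6 replicates 1 to 4 had 1980, 143, 1151 and 206 (log2 fold change 1.88, SE 0.96; adjusted p = 0.730 by limma). Its 2 highest values belonged to GPC6 replicates 1 and 3, the libraries with the highest neuron marker sums (73783 and 37842). With the neuron score as a term its log2 fold change was 0.012, and without GPC6 replicate 1 it was 1.23. All 12 neuron markers had a log2 fold change above 0, so the score and the group could not be fully told apart. The part of neurons in the value of Cyp46a1 was not tested. Ch25h, which makes an oxysterol and is expressed by immune cells, was at the lower end (-1.61, SE 1.88). It had 0 reads in GPC6 replicate 1, which allows up to 4.64 normalized counts, while the other GPC6 libraries had 40.5, 155 and 325 and the 3xCR tumors 32.9 to 287. Without GPC6 replicate 1 its log2 fold change was 0.14.

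Fatty acid synthesis is driven mainly by SREBP1. Of 10 genes of this list, 7 had a log2 fold change above 0 and 3 below, with a median of 0.29, and 1 had an unadjusted p under 0.05. This was Fasn, fatty acid synthase. The 3xCR libraries had 3365, 2912 and 1903 normalized counts, and GPC6 replicates 1 to 4 had 4132, 4111, 3569 and 5612. All GPC6 libraries lay above all 3xCR libraries, with means of 4356 ± 877 (SD, n = 4) and 2727 ± 748 (SD, n = 3), and this held with libraries scaled to an equal total or an equal upper quartile. The log2 fold change of 0.70 (SE 0.27, unadjusted p = 0.0348) did not pass adjustment in limma (adjusted p = 0.730), and it was 0.46 without 3xCR replicate 4. Acly, which makes cytosolic acetyl-CoA for both fatty acids and sterols and was chosen after its values were seen, was the other gene of the list without overlap (1808 to 2013 and 2303 to 3538 normalized counts, log2 fold change 0.42, SE 0.22, and 0.28 without GPC6 replicate 4). This made 2 of 10 genes without overlap and with GPC6 higher, beside 2.8% of all genes tested. Scd2, a desaturase and the most abundant gene of the list, had 0.16 (SE 0.44), and Scd1, its relative, had the lowest value (-0.26, SE 0.44).

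**Figure D4:**
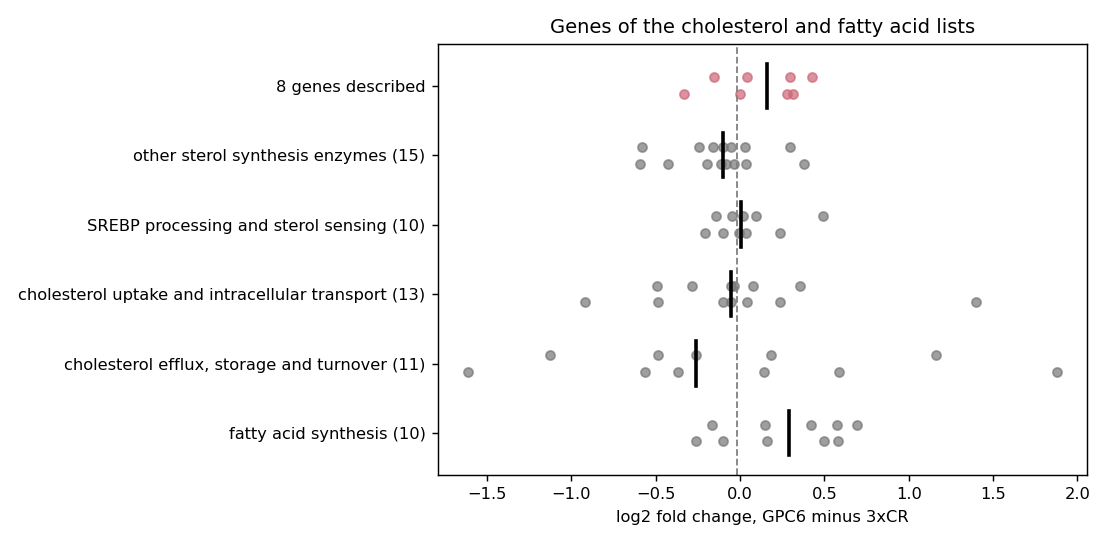
Log2 fold change (GPC6 minus 3xCR) of each gene of the cholesterol and fatty acid lists as a point, with the list's median as a black bar and the median of all genes tested (-0.02) as a dashed line. The 8 genes described here (red) lie between -0.33 and 0.43, and the efflux, storage and turnover list spreads from -1.61 to 1.88.

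Libraries were also weighted by how closely their values fit the group means (arrayWeights of limma), the setting that moved the calls most. With these weights 13.3% of all genes passed an adjusted p under 0.05 but 0 of the 8 cholesterol genes did. Srebf2 came closest, with a log2 fold change of 0.40 and an adjusted p of 0.0525. In that fit 2 of the 15 other sterol enzymes, 0 of the 10 SREBP processing genes, 2 of the 13 uptake genes, 4 of the 11 efflux genes and 0 of the 10 fatty acid genes passed. Among the genes named above these were Tm7sf2 (log2 fold change -0.81, adjusted p = 0.0291 by limma), Npc2 (-0.71, adjusted p = 0.0369), Stard3 (-0.62, adjusted p = 0.0291) and Cyp46a1 (2.74, adjusted p = 0.0290). The same weighted fit called 10 of the 12 neuron markers and 3 of the 10 microglia and macrophage markers. It called 1 of the 11 oligodendrocyte and 1 of the 8 choroid plexus markers, and 0 of the astrocyte and proliferation markers. The part of cell types in these calls was not tested.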

How the data were processed

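The authors aligned reads of stranded poly(A) libraries to mm10 with STAR 2.5.0a, counted them on genes and normalized with DESeq2 1.20.0 (versions from the submitters' processing notes); how reads that fit several genes were counted is not stated. The deposited values are a normalized signal, each count having been divided by its library's size factor, without correction for gene length. The table holds 19282 entries, of which 25 with dates for names (0.254% to 0.361% of reads) were left out. Whole reads were recovered (100% of values within 0.01 of a whole read). Libraries were grouped by their labels and compared with limma 3.58.1 under R 4.3.3, two-sided, after adding a pseudocount of 1 and taking log2, with a mean-variance trend and with Benjamini-Hochberg adjustment over the 14782 genes of mean at least 10. A count test was not the main test, because the values were deposited after normalization; edgeR 4.0.16, DESeq2 1.42.0 and voom were run on recovered reads among 21 alternatives. The code of the fit was run on simulated data with large changes, which does not show its power for differences as small as those described here. P-values measure the spread between brains, and no batch is named in the labels. The intervals are 95% intervals of the limma fit, and the limit of a count of 0 is 3 reads and covers counting error only.

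The 8 genes, the lists and the rule for named genes were chosen with earlier results of these data known. Beyond the 8, the rule named from each list the gene of highest mean, those of highest and lowest log2 fold change and any of unadjusted p under 0.05, and the 5 genes outside the lists nearest to the mean profile; some genes that it named are not reported here. The motifs were chosen with the promoter sequences in view. Gene positions and merged exons are those of GENCODE M21 (GRCm38, the assembly also called mm10).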

Additional observations from a re-analysis of the deposited data

Results flagged for a closer look

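Among the 4 GPC6 libraries, the highest and the lowest value of each named gene were compared with the next one by Dixon's ratio (gap over range, on the log2 scale) at its 95% critical value. Of 27 genes examined, 3 passed it in 1 library. Chance gives about 1.35 for genes chosen without regard to their values, which does not hold for Thoc2, named for following a profile that is lowest in GPC6 replicate 1, or for Acly, chosen after its values were seen. Dhcr7, the reductase of a last step of synthesis, had 334 normalized counts in GPC6 replicate 1, the remaining GPC6 tumors having 607 to 642 and 3xCR tumors 529 to 698 (ratio 0.914). Thoc2, one of the genes nearest to the mean profile, had 317 in the same library, the remaining GPC6 tumors having 435 to 454 (ratio 0.878). Acly, which supplies acetyl-CoA, had 3538 in GPC6 replicate 4, the remaining GPC6 tumors having 2303 to 2382 (ratio 0.921). No explanation was tested for these values, and the 3 libraries of the 3xCR group are too few for this criterion.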

How the results depend on the processing

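None of the 8 cholesterol genes passed an adjusted p under 0.05 in any of the 21 alternatives, and Hmgcs1, Sqle and Srebf2 kept a positive and Idi1 a negative log2 fold change in all 21. At an unadjusted p under 0.05 there were 2 of the 8 with weights per library (Insig1 and Srebf2), 1 with the replicate block (Hmgcs1, with a log2 fold change of 0.45) and 0 in the other settings. Over all genes, the number at an adjusted p under 0.05 was 1962 with weights per library, 4 by DESeq2 and 0 elsewhere. The number at an unadjusted p under 0.05 was 689, and it moved to 1853 by DESeq2, 5105 with weights per library, 312 with the neuron score and 1216 with the oligodendrocyte score as a term. Leaving out 3xCR replicates 2, 3 and 4 gave 1137, 379 and 119 genes, and leaving out GPC6 replicates 1 to 4 gave 459, 1401, 385 and 1159, a range of 119 to 1401. Among the 689 genes, 405 were higher and 284 lower in GPC6 tumors; with an equal upper quartile there were 327 and 388, and with an equal total 485 and 228. The median log2 fold change of all genes moved by at most 0.052 with the scaling.

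Some values changed sign, most of them near 0, but also Fdft1 (0.32) and Ch25h (-1.61). Lss was 0.020 by DESeq2, 0.00048 by edgeR, 0.061 with the oligodendrocyte score, 0.010 with the replicate block, 0.046 with an equal total and 0.12 with weights, and from -0.12 to 0.13 with each library left out. Insig1 was -0.012 with the neuron score, -0.038 with the oligodendrocyte score and -0.012 with an equal upper quartile, and -0.046 to 0.11 with a library left out. Dhcr7 was 0.17 with the neuron score and 0.074 with the replicate block, and -0.24 to 0.074 with a library left out, and Fdft1 was -0.072 with the neuron score. Acat2 was -0.083 with the oligodendrocyte score, -0.015 with an equal upper quartile and -0.20 with weights, and -0.20 to 0.25 with a library left out. Ch25h was 0.64 with the neuron score and 0.14 with the block, and -2.65 to 0.14 with a library left out. Nkap was 0.026 by DESeq2, 0.0020 by edgeR, 0.017 by voom, 0.15 with the neuron score, 0.16 with the block and 0.045 with an equal total, and -0.082 to 0.16 with a library left out. Scd1 was 0.023 with the oligodendrocyte score and -0.54 to 0.076 with a library left out, Scd2 -0.035 with the neuron score and -0.17 to 0.46, Syvn1 0.42 with weights and -0.54 to 0.31, and Sec24c -0.0014 to 0.27. The cause of these changes was not tested.

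The replicate numbers do not pair the tumors by any label. Deviations from the group means correlated across genes with r of -0.19, 0.12 and 0.30 for replicates 2, 3 and 4, and the highest r of 3xCR replicates 2 and 3 was with another number. The block left 678 genes at an unadjusted p under 0.05. Since replicate 1 has no 3xCR partner, its fold changes are those without GPC6 replicate 1.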
